A study of Mus musculus with 2 samples.

Results

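Cycling leukocytes of the mouse aorta were taken from single-cell RNA sequencing of whole aorta and chosen by measured UMIs: they are the cells in which Ptprc, the gene of the pan-leukocyte surface protein CD45, was detected together with at least 3 of the 5 cycle genes Mki67, Top2a, Birc5, Cdk1 and Ube2c. A gene counted as detected from 1 unique molecular identifier (UMI, a barcode that counts each captured transcript molecule a single time). Of 19897 cells kept (500 or more genes, mitochondrial UMIs no higher than 10%), 5709 had Ptprc and 154 were cycling leukocytes, 70 from the Cept1 library and 84 from the control library. These levels chose the cells, so the values of these 6 genes are a description and nothing rests on them.

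The Cept1 library (Cept1 aorta below) came from Cept1fl/fl Cre+ mice, which carry VE-cadherin-Cre-ERT2, a tamoxifen-inducible Cre driven by the promoter of an endothelial adhesion gene, and which the labels describe as overexpressing Cept1 in endothelial cells. The control library (control aorta below) came from Cept1fl/fl Cre- mice. All mice were male, of C57BL6 background and carried the floxed Cept1 genotype. The labels' protocols describe 5 daily injections of 1 mg tamoxifen from at least 8 weeks of age and 5 days of recovery, and do not separate the 2 genotypes in this step, while the age label reads 6 to 8 weeks. Aortas of 3 mice per condition, from the arch to the bifurcation, were digested with enzymes and treated to lyse red cells, and whether the mice were pooled, and how cells were sorted, was not stated. Cre acts in the endothelium, so leukocytes are not the cells in which Cept1 was targeted. With 1 library in each group, a difference between the groups and a difference between the 2 libraries cannot be told apart. So no difference was tested here. Intervals are 95% and reflect counting error alone.

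A dividing cell first licenses its replication origins and copies its DNA, and then switches on a second programme for mitosis. The 5 genes of the gate belong mostly to that later programme. Mki67 encodes the Ki-67 protein that coats mitotic chromosomes, Top2a the topoisomerase that untangles copied DNA, and Birc5 survivin, a subunit of the chromosomal passenger complex. Cdk1 encodes the kinase that drives entry into mitosis, and Ube2c the ubiquitin-conjugating enzyme that works with the anaphase-promoting complex. In arterial walls, resident macrophages are known to renew themselves by local division, whereas lymphocytes and neutrophils divide mainly during their development or after activation.

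Genes of the mitotic programme are known to be held down in resting cells by a complex that binds the cell cycle genes homology region (CHR), usually TTTGAA or TTCGAA, and many also carry CCAAT boxes, the site of NF-Y. The stretch from 200 to 41 bases before the RefSeq start is shown for the 3 gate genes in which a CHR form was found there, as an example of letters shared by genes that were chosen for the gate. Sequences are from RefSeq on GRCm38.p6, 5′ to 3′ on the strand of the gene, and capitals mark both CHR forms and the CCAAT box, searched on both strands, and no 2 matches overlap in the stretches shown.
Mki67 (minus strand, chr7:135716420-135716579): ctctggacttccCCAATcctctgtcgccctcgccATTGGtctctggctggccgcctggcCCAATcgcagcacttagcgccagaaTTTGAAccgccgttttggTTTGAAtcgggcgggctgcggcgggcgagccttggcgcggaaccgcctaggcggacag
Top2a (minus strand, chr11:99024230-99024389): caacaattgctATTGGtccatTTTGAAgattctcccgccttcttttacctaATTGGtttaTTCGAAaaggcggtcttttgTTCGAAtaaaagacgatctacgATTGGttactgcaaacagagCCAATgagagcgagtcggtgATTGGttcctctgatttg
Cdk1 (minus strand, chr10:69352953-69353112): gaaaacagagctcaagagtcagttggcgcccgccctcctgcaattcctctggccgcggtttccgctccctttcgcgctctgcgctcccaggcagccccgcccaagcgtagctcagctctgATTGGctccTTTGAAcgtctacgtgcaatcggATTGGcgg

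In these windows Mki67 held TTTGAA at 116 and 98 bases before the start and 3 CCAAT boxes, Top2a held TTTGAA at 179 bases, 2 TTCGAA and 5 CCAAT boxes, and Cdk1 held TTTGAA at 71 bases and 2 CCAAT boxes. Ube2c held 5 CCAAT boxes, 2 of them overlapping on opposite strands, and neither CHR form there, and Birc5 held none of these letters in its window. Of all 32851 promoter windows of this length, 3727 (11.3%) held a CHR form, 8225 a CCAAT box and 947 (2.88%) both. A CHR form was found in 2 of 19 windows of origin licensing genes and in 3 of 25 of DNA synthesis genes, against 3 of 10 of anaphase genes and 5 of 16 of chromatin and condensin genes. It was found in 4 of 32 windows of spindle and kinetochore genes and in 3 of 14 of mitotic kinases and cyclins. These counts are small, and differences between the lists were not tested. A match is a description of letters and not evidence of binding.

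Totals were 95735360 UMIs in 17728 barcodes for Cept1 aorta and 88220524 UMIs in 14349 barcodes for control aorta. Of the barcodes, 74 occurred in both libraries, 31 of them among kept cells and 0 among the cycling leukocytes. Cycling leukocytes were deep cells, with a median of 16144 UMIs and 4475 genes in Cept1 aorta and 17062 UMIs and 4266.5 genes in control aorta, against 7988.5 and 7664 UMIs over all leukocytes. Their depth ran between 1909 and 48450 UMIs in Cept1 aorta and between 1717 and 76605 UMIs in control aorta. Pooled, they held 1294879 and 1818211 UMIs, the base of all levels below, which are UMIs per 1000000 UMIs of the same cells (CPM). A gene's log2 ratio is that of CPM in Cept1 aorta over control aorta.

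Each gate gene was found in most members of both libraries. Mki67 (chr7:135689784-135716361, minus strand, GRCm38) was detected in 68 of 70 members of Cept1 aorta, with a median of 12 and a highest value of 53 UMIs, and in 76 of 84 of control aorta, with a median of 10 and a highest value of 87. Top2a (chr11:98992943-99024189, minus strand) was detected in 65 and 80 members, and Cdk1 (chr10:69335146-69352938, minus strand) in 58 and 71. Cdk1 was the gate gene with the fewest members in both libraries, with medians of 2.5 and 2 UMIs. All 5 genes were found in 46 of 70 members of Cept1 aorta and in 50 of 84 of control aorta.

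Other cycle genes were higher, by their medians, in cells with more gate genes. The genes of the cycle lists outside the gate summed to a median of 164 UMIs per 10000 in the 13 members of Cept1 aorta with exactly 3 gate genes, 202 in the 11 with 4 and 317 in the 46 with 5. In control aorta the medians were 110 in 14 members, 176 in 20 and 334 in 50. Members with exactly 3 gate genes ran from 24.5 to 319.5 in Cept1 aorta and from 39.4 to 329.6 in control aorta, so that some were near the level of cells with none. Leukocytes with 2 gate genes, just outside, had 45.7 per 10000 in 27 cells of Cept1 aorta and 74.8 in 42 cells of control aorta. Leukocytes with 1 gate gene had 24.6 and 27.9, next to 24.3 and 27.9 in those with none. The medians thus stepped up between 1 and 3 detected genes in both libraries.

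**Figure D1:**
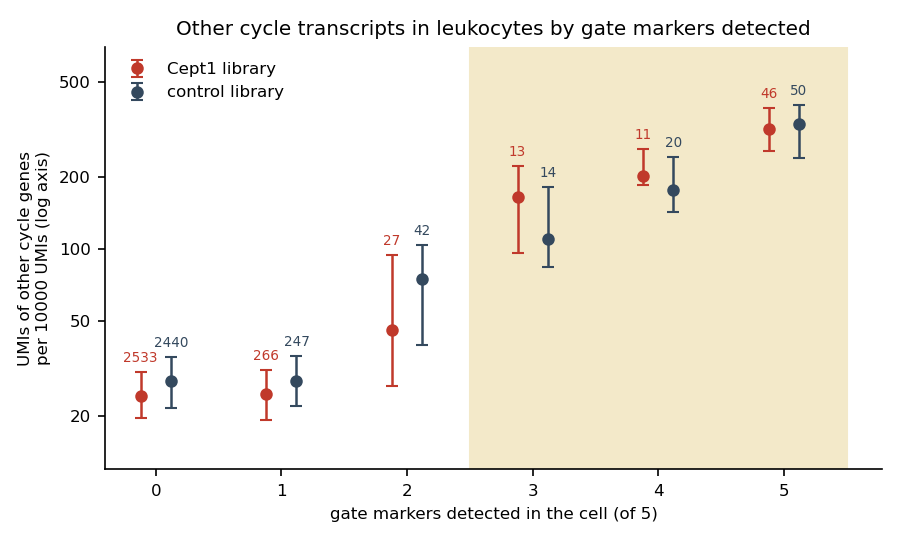
UMIs of the listed cycle genes outside the gate per 10000 UMIs of the cell (log axis) against the number of the 5 gate genes detected, in leukocytes of Cept1 aorta (red, left of each pair) and the control library (dark). Points are medians over cells, bars run from the lower to the upper quartile, numbers count cells, and the shaded cells with 3 to 5 genes are the members; medians reach 317 and 334 at 5 genes.

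Cells without Ptprc passed the cycle gate rarely, in 15 of 8272 (0.181%) in Cept1 aorta and in 19 of 5916 (0.321%) in control aorta. At least 3 gate genes were found in 7 of 4882 fibroblast cells (0.143%) of Cept1 aorta and in 10 of 3559 (0.281%) of control aorta, taken as cells with Col1a1 and Dcn, genes of the fibroblast matrix, and without Ptprc. Mature neutrophils, which do not divide, passed in 1 of 102 and 1 of 88 cells. They were taken from cells with Ptprc, so those that passed are themselves members. Leukocytes made up most of all cells past the gate, 70 of 85 (82.4%) in Cept1 aorta and 84 of 103 (81.6%) in control aorta.

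The share of cycling leukocytes among kept cells was 0.627% in Cept1 aorta (interval 0.489 to 0.791%) and 0.962% in control aorta (0.768 to 1.19%), a difference of -0.336 percentage points (-0.598 to -0.0886). Leukocytes as a whole were also a smaller part of Cept1 aorta, 25.9% against 32.2%. Of leukocytes, 2.42% were cycling in Cept1 aorta (1.89 to 3.04%) and 2.99% in control aorta (2.39 to 3.68%). That difference, -0.569 points, had an interval of -1.43 to 0.276 and was not detectable at this number of cells. The cycling share of each class described below, those with several or none of the lineages included, was also weighted by the class mix of both libraries together. The weighted shares came to 2.77% in Cept1 aorta and 2.79% in control aorta, without an interval. Differences within classes ran in both directions and partly cancelled in these values.

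Lineage was read from Cd79a (a part of the B cell receptor), Cd3e (a part of the T cell receptor complex), C1qa (a complement subunit made by macrophages) and Lyz2 (lysozyme of myeloid cells). Members with only 1 of Cd79a, Cd3e and C1qa formed the B, T and macrophage classes, and those with Lyz2 alone the myeloid class. The largest class was macrophages in Cept1 aorta, 29 of 70 members (41.4%, interval 29.8 to 53.8%), against 17 of 84 (20.2%, 12.3 to 30.4%) in control aorta. T cells were the largest class of control aorta, and made up 16 members (22.9%) in Cept1 aorta and 27 (32.1%) in control aorta. B cells made up 2 members (2.86%) in Cept1 aorta and 17 (20.2%) in control aorta. Both libraries held 13 myeloid members, and 8 and 7 members carried genes of several lineages.

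For macrophages, B cells and T cells, the class was larger in the same library among members and among all leukocytes. Macrophages were 60.9% of leukocytes in Cept1 aorta and 28.3% in control aorta, B cells 6.94% and 21.4%, and T cells 7.98% and 20.9%. Cells with genes of several lineages were the exception, at 11.4% of members in Cept1 aorta and 8.33% in control aorta, against 3.52% and 6.36% of all leukocytes. Within each class the cycling shares of the libraries differed by less than the counting error. Of macrophages 1.64% were cycling in Cept1 aorta and 2.14% in control aorta, a difference of -0.493 points (-1.85 to 0.574). Of T cells 6.93% and 4.60% were cycling, a difference of 2.33 points (-0.974 to 6.60), and of myeloid cells 3.32% and 3.85% (-3.49 to 2.24 points). Of B cells 0.995% (2 of 201) and 2.82% (17 of 603) were cycling, a difference of -1.82 points (-3.62 to 0.943). Each of these intervals includes 0, which does not show that the shares were alike.

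**Figure D2:**
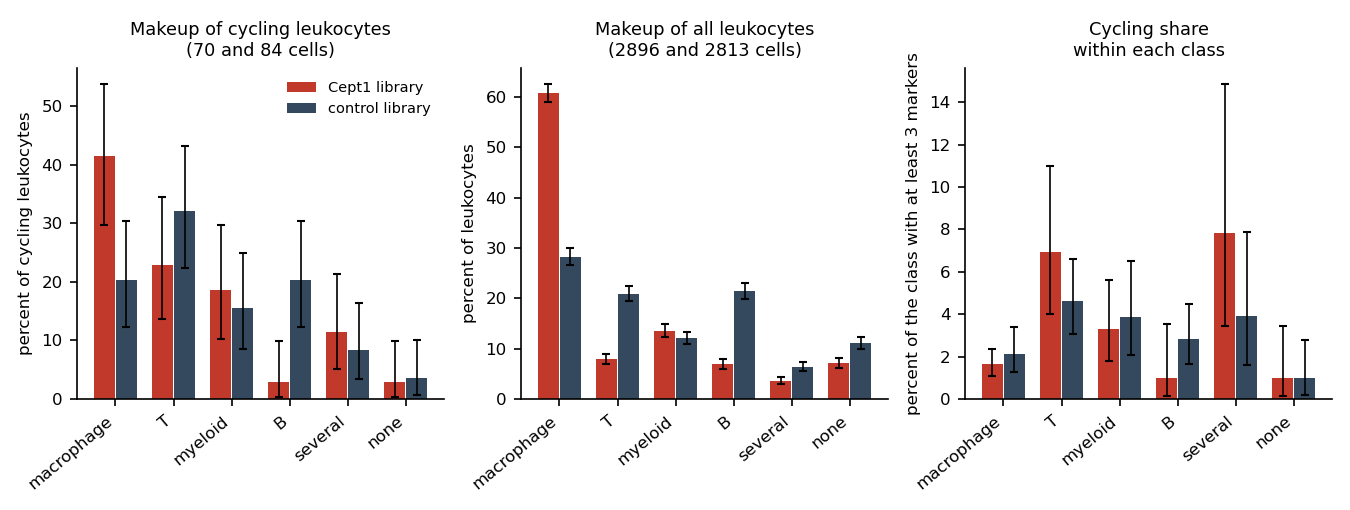
Left, percent of cycling leukocytes in each lineage class. Middle, the same for all leukocytes. Right, percent of each class with at least 3 gate genes. Bars are the Cept1 library (red, left) and the control library (dark), error bars are exact 95% binomial intervals; macrophages lead the Cept1 library in the left and middle panels, and the intervals of the right panel overlap in every class.

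Free RNA and depth bear on these classes. C1qa was found in 11.3% of fibroblast cells of Cept1 aorta and in 10.3% of control aorta, and Lyz2 in 21.0% of both, at a median depth of 4771.5 and 5051 UMIs. Cd79a was found in 0.328% and 1.63% of these cells and Cd3e in 0.0615% and 0.618%. Among members the shares were 5.71% and 26.2% for Cd79a, 31.4% and 35.7% for Cd3e, 52.9% and 27.4% for C1qa and 71.4% and 64.3% for Lyz2, at their higher depth. In 5 of 29 macrophage members of Cept1 aorta and 7 of 17 of control aorta, C1qa stood at 1 to 8 and at 1 to 2 UMIs. The control library held 12 members below 5000 UMIs, of which 11 carried Col1a1, a collagen gene of fibroblasts, at 5 to 50 UMIs. The Cept1 library held 1 member below 5000 UMIs, with 0 Col1a1. With cells of at least 5000 UMIs only, 29 of 69 members of Cept1 aorta and 14 of 72 of control aorta were macrophages, and 2 and 12 were B cells. The part of free RNA in the remaining classes was not tested. Non-cycling leukocytes (0 gate genes), set beside members below, had medians of 7598 and 7194 UMIs. Shares of cells with a gene are therefore compared below at unlike depth.

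The macrophage members of the 2 libraries differed in their resident macrophage genes. Folr2, Lyve1 and Cd163 mark resident macrophages of the arterial wall, and at least 1 of them was found in 27 of 29 macrophage members of Cept1 aorta, against 6 of 17 of control aorta. Among non-cycling macrophages (0 gate genes) the shares were 89.6% and 88.0%. Cells with at least 10 C1qa UMIs, a level set after the values were seen, numbered 24 in Cept1 aorta, all 24 with at least 1 of these genes, and 10 in control aorta, 6 of them with at least 1. In the 24 cells of Cept1 aorta C1qa ran from 13 over a median of 38.5 to 110 UMIs, and in the 10 of control aorta from 23 over 57 to 100.

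Mrc1, the mannose receptor, was present in all 24 of these cells of Cept1 aorta, from 8 over a median of 31 to 87 UMIs. In the 10 cells of control aorta it ran from 0 over 5 to 76 UMIs, and 4 of them had none. F13a1, a transglutaminase gene, was present in all 24 cells of Cept1 aorta with a median of 25.5 UMIs and in 6 of 10 of control aorta with a median of 5.5. F13a1 was not limited to macrophages, and had 85 UMIs in a myeloid member of control aorta with 0 of C1qa and Mrc1. The 4 cells of control aorta without Mrc1 also had 0 UMIs of F13a1, Folr2 and Cd163, at a depth of 16549 to 53182 UMIs. All 4 had Csf1r, the receptor of the macrophage growth factor CSF1, at 7 to 13 UMIs. Their C1qa, at 23 to 100 UMIs, was high by the choice of these cells. H2-Ab1, a chain of the MHC class II proteins that present antigen, had 178, 184 and 207 UMIs in 3 of these cells and 0 in the other. Among non-cycling macrophages with at least 10 C1qa UMIs, Mrc1 was at 0 in 21 of 1324 in Cept1 aorta and in 2 of 521 in control aorta.

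Summed over the macrophage class, 9 of 10 genes of the resident macrophage list were higher in Cept1 aorta, 7 of them past 2-fold, with a median log2 ratio of 1.76. Over all 3493 genes measured in this class, 7.39% were more than 2-fold higher and 4.87% more than 2-fold lower in Cept1 aorta (12.3% either way), and the median was 0.14. These genes had at least 50 UMIs, while listed genes entered from 20 UMIs, where counting error is larger. The same holds for the lists compared between libraries below. Folr2 stood at 286 CPM in Cept1 aorta and 28.8 CPM in control aorta, Gas6 at 263 and 64.7 CPM and Cd163 at 599 and 151 CPM. Timd4, a receptor for dying cells, was the exception, at 35.5 and 83.9 CPM. In non-cycling macrophages the levels were close between libraries, with Folr2 at 756 and 847 CPM and Cd163 at 890 and 937 CPM. The 17 cells of the control class included the 7 with little C1qa, 1 of them with 1240 UMIs of Camp, a granule gene of developing neutrophils, which made up all Camp UMIs of that class.

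T cell members of both libraries held cells of a thymocyte pattern. Rag1 and Dntt, which cut and extend antigen receptor genes during lymphocyte development, were found, either or both, in 7 of 16 T members of Cept1 aorta and in 17 of 27 of control aorta, against 13.6% and 13.7% of non-cycling T cells. T members had medians of 10460 and 15277 UMIs, against 6620 and 7509 in non-cycling T cells, so the shares were not at equal depth. Dntt ran from 2 over a median of 10 to 18 UMIs in the 7 cells of Cept1 aorta and from 1 over 12 to 27 UMIs in the 17 of control aorta. Arpp21, an RNA-binding protein gene of thymocytes, was present in every one of these cells, at medians of 27 and 23 UMIs. So were Satb1, a chromatin organizer of developing T cells, at medians of 47 and 48 UMIs, and Themis, a signalling protein of thymocyte selection, at medians of 39 and 26 UMIs. Foxp3 and the cytotoxic gene Nkg7 were at 0 UMIs in all of them. Gzma, a granule protease gene of cytotoxic cells, was found in some of them. It reached 20 UMIs in a cell of Cept1 aorta and 15 in a cell of control aorta.

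Rag1 and Dntt together were found in 6 of 16 T members of Cept1 aorta and in 15 of 27 of control aorta, against 21 of 191 and 51 of 519 non-cycling T cells. Over all leukocytes, cells with at least 2 of the genes Rag1, Rag2, Ptcra, Dntt and Cd8b1 were cycling in 8 of 52 (15.4%, interval 6.88 to 28.1%) in Cept1 aorta and in 21 of 117 (17.9%, 11.5 to 26.1%) in control aorta. In fibroblast cells Rag1 was found in 0 of 4882 of Cept1 aorta, which allows a share of up to 0.0615%, and in 0.112% of control aorta.

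Other T members carried regulatory or cytotoxic genes, in different numbers. Foxp3, the transcription factor of regulatory T cells, was found in 1 of 16 T members of Cept1 aorta, at 2 UMIs, and in 6 of 27 of control aorta, from 1 over a median of 9 to 11 UMIs. Ikzf2, which encodes Helios, stood at 51 UMIs in the cell of Cept1 aorta and at 15 to 187 UMIs in the 6 of control aorta, and none of the 7 cells had Cd8a or Rag1. At least 2 UMIs each of the chemokine gene Ccl5 and of Nkg7 were found in 7 of 16 T members of Cept1 aorta and in 5 of 27 of control aorta, a combination chosen after the values were seen. Gzma had 87 UMIs in these 7 cells and 2 in these 5. All T members together held 128 in Cept1 aorta and 27 in control aorta. The rest lay in the T members with Rag1 or Dntt, so Gzma did not set the 2 kinds of cell apart. Outside the cycle Gzma stood at 529 and 123 CPM in non-cycling T cells. All 4 cytotoxic genes measured in the T class were more than 2-fold higher in Cept1 aorta (median 2.10) and 4 of 5 regulatory T cell genes more than 2-fold lower (median -1.30). Of all 3219 genes with at least 50 UMIs in this class, a higher minimum than for listed genes, 4.13% were past 2-fold higher and 4.38% lower (8.51% either way).

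Some B cell members carried genes of an early stage. In control aorta, 3 of 17 had Vpreb1, a part of the surrogate light chain of early B cells, with 27 to 78 UMIs of Vpreb3, 10 to 18 of Il7r, the receptor of a growth factor of early lymphocytes, and 0 of Ms4a1, the gene of CD20 on mature B cells. Vpreb1 was not found in the 2 B members of Cept1 aorta. Among non-cycling B cells Vpreb1 was found in 0 of 192 in Cept1 aorta (up to 1.56%) and 0 of 557 in control aorta (up to 0.539%).

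B members with many antibody transcripts passed the gate in both libraries. Both B members of Cept1 aorta had many UMIs of Igha, the heavy chain of IgA, a gene chosen after its values were seen, at 527 and 603, with 29 and 190 UMIs of Jchain, which joins IgA and IgM units. In control aorta 2 of 17 B members had 1133 and 6238 UMIs of Igha and 372 and 2280 of Jchain. Pax5, which maintains the B cell state and is shut off in plasma cells, and Ighm, the heavy chain of IgM, were at 0 in these 4 cells. After thinning to 3000 UMIs, the B members of Cept1 aorta had 0 and 3 replication UMIs and 1 and 4 mitosis UMIs, beside medians of 2 and 1 in non-cycling leukocytes, and 1 of the 2 was above the doublet threshold. Of the 12 shallow members of control aorta, 5 were B cells, so that the stages named here rest on the other 12 of its 17.

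Myeloid members carried monocyte, dendritic cell or neutrophil precursor genes, and a cell could count in several of these sets. At least 2 of the 4 monocyte genes Ccr2, Ly6c2, Plac8 and Vcan were found in 8 of 13 in Cept1 aorta and in 9 of 13 in control aorta. The shares were 31.1% and 26.2% in non-cycling myeloid cells, and 11.8% and 11.9% in fibroblast cells, so this set is not particular to monocytes. Myeloid members had medians of 25082 and 22811 UMIs, against 7260 and 6198 in non-cycling myeloid cells. Their shares are thus not at equal depth, here and for the genes that follow. Flt3, the receptor of the growth factor that drives dendritic cell development, was found in 8 of 13 in Cept1 aorta and in 4 of 13 in control aorta, against 11.9% and 14.7% of non-cycling myeloid cells. Equal numbers, 8 and 4, had at least 2 of Flt3, Xcr1, Clec9a, Cd209a and Siglech. Of the 8 cells of Cept1 aorta 7 had Flt3. In these 8 cells H2-Ab1 ran from 71 over a median of 176 to 279 UMIs, and in the 4 from 0 over 80.5 to 433. Among the 4, the cells with 0 and 2 H2-Ab1 UMIs had 31 and 34 of Ly6c2, a monocyte gene. Over all leukocytes, cells with at least 2 of the dendritic cell genes numbered 163 in Cept1 aorta, 11 of them cycling, and 139 in control aorta, 5 of them cycling. The difference of these cycling shares had an interval of -2.26 to 8.49 points. All 7 MHC class II genes were more than 2-fold higher in the myeloid class of Cept1 aorta (median 1.47). Of 2447 genes with at least 50 UMIs in this class, 10.3% were that much higher and 6.13% that much lower (16.4% either way).

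Ly6c2, a surface protein of classical monocytes and their precursors, was found in 1 of 13 myeloid members of Cept1 aorta, at 22 UMIs, and in 8 of 13 of control aorta, from 10 over a median of 32.5 to 122. The single cell of Cept1 aorta carried neutrophil precursor genes, with 900 UMIs of Camp, 864 of Ngp and 3954 of S100a9, all granule or cytoplasmic proteins of neutrophils. At least 2 neutrophil precursor genes were found in 1 of 13 myeloid members of Cept1 aorta and in 4 of 13 of control aorta, and over all classes in 1 of 70 and 5 of 84. Elane, the elastase of the earliest granules, reached 611 UMIs in 1 of the 4 and Camp, of later granules, 1669 in another. Elane was at 0 UMIs in all 70 members of Cept1 aorta, which allows up to 4.29% of them, and was found in 4 of 84 of control aorta. Camp and Ngp together were found in 1.74% of non-cycling myeloid cells of Cept1 aorta and in 17.6% of those of control aorta.

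Genes used as markers of vessel wall cells were also present in some members. At least 2 of the endothelial genes Pecam1, Cdh5, Kdr, Tie1 and Vwf were found in 6 of 13 myeloid members of Cept1 aorta and in 0 of 13 of control aorta (up to 23.1%), against 15.1% and 8.96% of non-cycling myeloid cells. Pecam1 ran from 1 over a median of 4 to 53 UMIs in these 6 cells, and Cdh5, the gene of VE-cadherin, reached 9 UMIs and was at 0 in 4 of them. Pecam1 is not limited to endothelial cells, and was found in 132 of 192 and 397 of 557 non-cycling B cells. Over all members, 13 of 70 and 2 of 84 had at least 2 endothelial genes, against 9.95% and 7.05% of non-cycling leukocytes. At least 2 fibroblast genes were found in 36 of 70 and 45 of 84, against 45.2% and 42.2%. Cells that scored above the doublet threshold numbered 7 of 70 members in Cept1 aorta and 0 of 84 in control aorta (up to 3.57%), against 9.22% and 4.19% of all leukocytes. The part of cell pairs, of free RNA and of the greater depth of members in these values was not tested.

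Members with genes of several lineages mainly had both Cd3e and C1qa in Cept1 aorta. Cd3e and C1qa were found together in 6 of its 8 such cells, from 4 over a median of 6 to 11 UMIs of Cd3e and from 1 over 1.5 to 19 of C1qa, and in 2 of 7 of control aorta. The cell of Cept1 aorta with 19 C1qa UMIs also had 22 of Mrc1 and 30 of F13a1. Another, with 12 C1qa UMIs, had 61 of Lyz2 and 81 of Pecam1. At least 2 of the 5 macrophage genes C1qa, C1qb, C1qc, Csf1r and Mrc1 were found in 5 of the 8 and in 3 of the 7. Dntt was found in 1 of the 8 and in 4 of the 7. None of the lineage genes was found in 2 and 3 members.

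**Figure D3:**
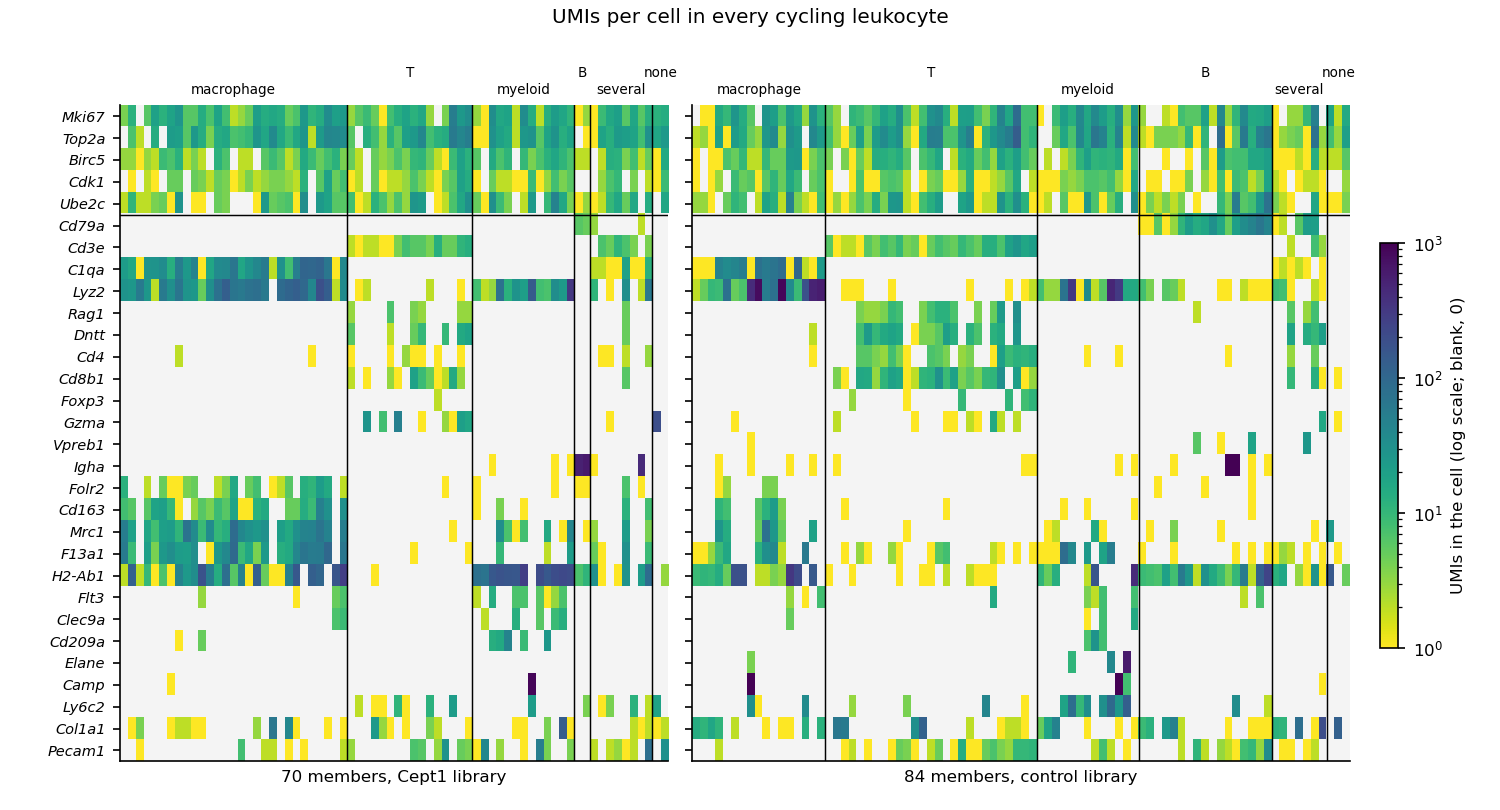
UMIs of the 5 gate genes (top rows) and of lineage and subtype genes in each of the 70 members of Cept1 aorta (left) and the 84 of control aorta (right), ordered by lineage class and, within a class, by depth. Colour gives UMIs on a log scale and blank cells are 0; Mrc1 and F13a1 fill most macrophage columns of Cept1 aorta, and Rag1, Dntt and Cd8b1 mark a block of T members in both libraries.

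Replication and mitosis genes were compared after thinning each cell to 3000 UMIs, which left 69 members of Cept1 aorta and 76 of control aorta. Genes of origin licensing and DNA synthesis gave a median of 12 UMIs per cell in Cept1 aorta and 15 in control aorta, and genes of mitosis 27 and 18.5. Mitosis UMIs outnumbered replication UMIs in 48 of 69 members (69.6%) of Cept1 aorta and in 42 of 76 (55.3%) of control aorta. In the macrophage class the counts were 23 of 29 and 9 of 15, and in the T class 9 of 15 and 18 of 27. In the myeloid class they were 8 of 13 and 5 of 11. Non-cycling leukocytes had medians of 2 replication and 1 mitosis UMIs in both libraries. Members were chosen by genes mostly of the mitotic programme, and non-cycling cells by their absence. The balance of mitosis and replication UMIs is therefore set in part by the gate.

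**Figure D4:**
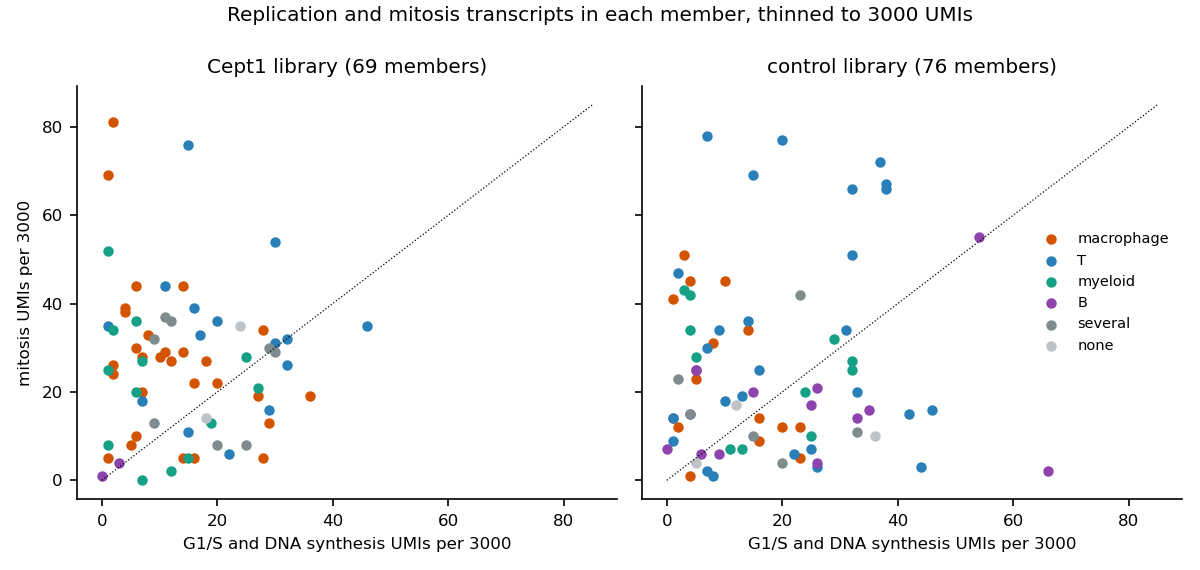
UMIs of mitosis genes against UMIs of origin licensing and DNA synthesis genes in each member after thinning to 3000 UMIs, in Cept1 aorta (left, 69 members) and the control library (right, 76 members), coloured by lineage class. The dotted line marks equal counts; 48 of 69 members lie above it in Cept1 aorta and 42 of 76 in control aorta.

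Summed over all members, the cycle lists leaned in different directions between the libraries. Of 24 genes of the step into S phase, 3 were higher and 21 lower in Cept1 aorta, with a median log2 ratio of -0.52, and 1 was past 2-fold in each direction. Over all 7997 genes with at least 50 UMIs the median was -0.01, with 6.3% more than 2-fold higher and 4.46% more than 2-fold lower (10.8% either way). Mcm3, a subunit of the replicative helicase, stood at 91.1 CPM in Cept1 aorta and 157 CPM in control aorta, a log2 ratio of -0.79 (-1.11 to -0.47), and E2f2, a transcription factor of S phase entry, at 62.6 and 115 CPM. Ccne1, a cyclin of S phase entry, went the other way, with 57 UMIs in Cept1 aorta, 32 of them in 1 cell, and 37 in control aorta.

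Of 32 DNA synthesis genes 7 were higher and 25 lower (median -0.30), and of 38 spindle, kinetochore and cytokinesis genes 29 were higher and 9 lower (median 0.18), none past 2-fold in either list. Plk1, a mitotic kinase, stood at 76.5 CPM in Cept1 aorta and 54.4 CPM in control aorta, a log2 ratio of 0.49 (0.07 to 0.91), while Ccnb1, the cyclin of Cdk1, stood at 78.8 and 107 CPM (-0.44, -0.80 to -0.08). The lean depended on the class. Spindle genes were higher in 36 of 38 in the macrophage class (median 0.61), in 27 of 38 in the T class (0.24) and in 8 of 38 in the myeloid class (-0.34). DNA synthesis genes had medians of 0.14, 0.07 and -0.62 in these classes, and with macrophage and T classes weighted equally the median over members was 0.14 in place of -0.30.

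Members were also set against non-cycling leukocytes of the same library, weighted to the same lineage mix, and read only where both libraries gave the same direction. Of 7267 genes measured, 8.5% were more than 2-fold higher and 7.35% lower in members of Cept1 aorta, 10.3% and 11.1% in those of control aorta, and 6.85% and 3.96% in both. Of the listed cycle genes outside the gate, 128 reached the minimum of 50 UMIs and 126 of these were more than 2-fold higher in both, as the choice of the cells makes likely. The exceptions were 1 gene each of origin licensing and of anaphase. The list also holds genes that resting leukocytes use, such as H2afz, a histone variant, at 2341 CPM in members and 358 CPM in non-cycling cells of Cept1 aorta and at 2362 and 319 CPM in control aorta. Stmn1, which destabilizes microtubules, separated the cells more, at 1105 and 16.2 CPM in Cept1 aorta and at 1158 and 21.4 CPM in control aorta.

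Outside the lists, the genes with the largest ratios were Ska1 of the outer kinetochore, the mitotic kinesin Kif18b, Pimreg and replication-dependent histone genes. Ska1 stood at 57.9 CPM in members and 0.0265 CPM in non-cycling cells of Cept1 aorta and at 51.7 and 0.0136 CPM in control aorta. Neil3, a DNA glycosylase, stood at 117 and 0.237 CPM in Cept1 aorta and at 147 and 0.272 CPM in control aorta. Hist1h1b, a linker histone gene of a family of near-identical copies, so that its count is uncertain, stood at 319 and 2.89 CPM in Cept1 aorta and at 493 and 4.25 CPM in control aorta. The lowest ratios included genes of mast cells and mature neutrophils, which are part of the non-cycling pool. Mcpt4 and Cpa3 of mast cells had 0 and 3 UMIs in members of Cept1 aorta and 1 and 1 in those of control aorta. Retnlg of mature neutrophils stood at 6.95 CPM in members and 385 CPM in non-cycling cells of Cept1 aorta, and at 9.35 and 617 CPM in control aorta.

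Brakes and accelerators of the cycle were split in direction. Of 23 measured genes of G1 control and quiescence, 11 were higher and 10 lower in members in both libraries, with 6 and 1 past 2-fold. Cdkn2c, a CDK inhibitor, stood at 127 CPM in members and 9.74 CPM in non-cycling cells of Cept1 aorta and at 74.8 and 8.91 CPM in control aorta. Rbl1, which encodes the pocket protein p107, stood at 91.9 and 12.6 CPM in Cept1 aorta and at 92.4 and 14.2 CPM in control aorta. Btg1, an antiproliferative gene, was lower in members, at 388 and 822 CPM in Cept1 aorta and at 390 and 1054 CPM in control aorta. Klf2, a factor of lymphocyte quiescence, stood at 480 and 829 CPM in Cept1 aorta and at 277 and 662 CPM in control aorta.

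Cdkn1a, the inhibitor p21 induced by p53, differed between the libraries. It stood at 379 CPM in members and 197 CPM in non-cycling cells of Cept1 aorta and at 135 and 127 CPM in control aorta. Its log2 ratio between members of the 2 libraries was 1.49 (1.27 to 1.72) and 1.02 (0.74 to 1.30) in the macrophage class, which held 354 of 491 Cdkn1a UMIs of Cept1 aorta. Among growth receptors, 1 of 18 measured genes was higher and 11 lower in members in both libraries. Flt3 was the higher one, at 48.7 CPM in members and 10.6 CPM in non-cycling cells of Cept1 aorta and at 31.9 and 13.1 CPM in control aorta. Csf1r was lower, at 247 and 535 CPM in Cept1 aorta and at 88.0 and 290 CPM in control aorta, and so was Il7r, at 63.3 and 185 CPM in Cept1 aorta and at 55.5 and 215 CPM in control aorta. Il2ra, the high-affinity chain of the interleukin-2 receptor, ran opposite, at 15.4 and 27.2 CPM in Cept1 aorta and at 44.5 and 7.61 CPM in control aorta.

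The largest ratios between the libraries over all members followed the lineages. The 10 highest in Cept1 aorta included the resident macrophage genes Ccl8, Folr2, Lyve1, Mgl2 and Stab1, the endothelial or mural genes Ptprb, Cytl1 and Pdgfd, and Gzma and Arg1. Mgl2 had 398 UMIs in 31 members of Cept1 aorta and 64 in 17 of control aorta, and no cell held more than 11.8% of the UMIs of Cept1 aorta. Arg1, by contrast, had 91 of its 100 UMIs of Cept1 aorta in 1 cell, and Ptprb 116 of 230. Likewise 1 cell held 62 of 103 UMIs of Pdgfd, 48 of 101 of Ccl8 and 191 of 320 of Gzma. For Gzma this was a cell with none of the lineage genes. The 10 lowest were the early neutrophil genes Prtn3 and Fcnb, the B cell genes Pax5, Vpreb3, Ms4a1, Blk, Cd79a and Ebf1, and Ebf2 and Sema3c. Ebf2 and Sema3c had 105 of 114 and 104 of 113 UMIs of control aorta in a cell of the macrophage class, and Prtn3 had 349 of 423 in a cell of the myeloid class.

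Lists of other themes were read beside the background of 6.3% and 4.46%. That background holds genes with at least 50 UMIs and listed genes entered from 20, so the 2 are not at an equal minimum. All 7 MHC class II genes were higher in members of Cept1 aorta, 4 past 2-fold (median 1.06), and all 8 B cell genes were more than 2-fold lower (median -3.86). Of 10 thymocyte genes 8 were more than 2-fold lower (median -1.81), of 5 regulatory T cell genes 4 (median -1.53), and of 6 measured cytotoxic genes 5 were more than 2-fold higher (median 1.48). All 16 immediate early and dissociation genes, which respond to tissue digestion, were higher, 9 past 2-fold (median 1.12). Fos stood at 2281 CPM in members of Cept1 aorta and 961 CPM in those of control aorta, and in non-cycling leukocytes at 3028 and 1873 CPM. In the T class the median of this list was 0.69, and in the macrophage class 0.36. With macrophage and T classes weighted equally the medians came to 0.45 for MHC class II, -1.73 for B cell, -0.77 for thymocyte and 0.46 for immediate early genes. Interferon response genes had a median of 0.00 over 11 measured genes.

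**Figure D5:**
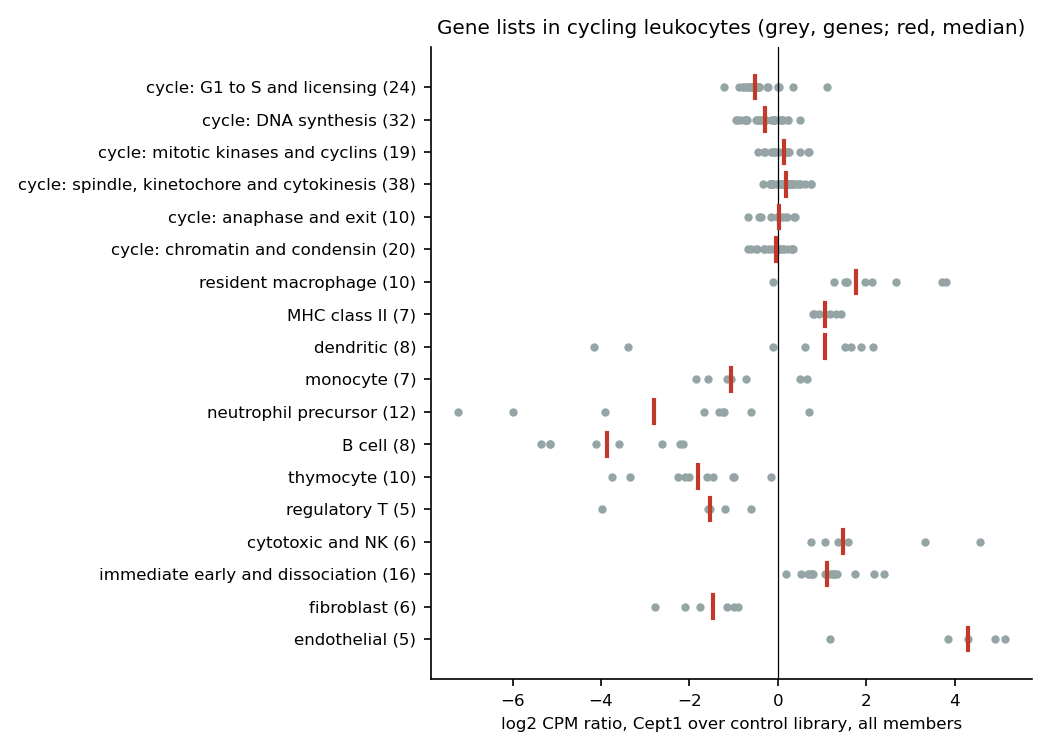
Log2 CPM ratio of Cept1 aorta over control aorta over all members, for genes of 18 lists (grey points, the number of genes measured in brackets) with the list's median (red line). Genes with 0 UMIs in Cept1 aorta, such as Elane, enter the median and are not drawn; cycle lists lie near 0, resident macrophage and MHC class II lists to the right, and B cell, thymocyte and neutrophil precursor lists to the left.

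Cept1 (chr3:106502260-106547802, minus strand, GRCm38), the last enzyme in the synthesis of phosphatidylcholine and phosphatidylethanolamine, had 87 UMIs in 47 of 70 members of Cept1 aorta and 86 UMIs in 40 of 84 of control aorta, or 67.2 and 47.3 CPM. The log2 ratio was 0.51 (0.06 to 0.95). Non-cycling leukocytes had 98.6 CPM in Cept1 aorta and 74.3 CPM in control aorta. In the macrophage class the members had 54.3 and 52.7 CPM, and in the T class 112 and 42.4 CPM. Of 14 measured genes of phospholipid synthesis 12 were higher in members of Cept1 aorta, 1 of them past 2-fold (median 0.31). Whether reads of the engineered allele enter this count was not stated.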

How the data were processed

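The deposited values were unnormalized UMI counts of 32285 features in each barcode, and their file headers name Cell Ranger 7.2.0. The mm10 build and Seurat stand in the submitters' processing notes, with no step given. How strand and intronic reads were handled was not stated. UMIs of cells were summed per library and divided by their total (CPM). A gene was measured between libraries with at least 50 UMIs in both libraries together (20 for a listed gene), and against non-cycling cells with at least 50 UMIs of members and non-cycling cells in each library. Shares have exact 95% Clopper-Pearson intervals, differences of shares Newcombe intervals, and ratios the exact interval of the split of UMIs; none covers the spread between mice. A count of 0 was given the limit of 3 counts. Named genes were the gate and lineage genes, listed genes with at least 20 UMIs, the 10 ratios at either end between libraries (100 UMIs or more), and the 15 highest and lowest against non-cycling cells. Mitochondrial, ribosomal, haemoglobin, antigen receptor and unnamed genes were left out of rankings. The members, lists and alternatives were chosen with earlier results of these data known. Fibroblast cells used for free RNA had at least 2 UMIs each of Col1a1 and Dcn and none of Ptprc and Pecam1; mature neutrophils had Ptprc, at least 2 UMIs each of Retnlg and S100a8 and none of C1qa and Cd3e. Levels that define subsets of members, and Igha, were chosen after the values were seen. Doublets were scored with Scrublet (scanpy 1.11.5, 8% assumed). The tool set 0.237 for Cept1 aorta and 0.702 for control aorta, which marked 0 control cells; 0.237 then served for both, and marked cells were kept in the main values. It marked 533 (4.77%) and 183 (2.10%) of kept cells. The scripts were tested on simulated counts. Gene coordinates are from GENCODE vM21 on GRCm38.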

Additional observations from a re-analysis of the deposited data

How the results depend on the processing

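Differences of shares between the libraries were recomputed with other cell filters, gate thresholds, Ptprc or lineage minimums, with thinning and without likely doublets. A setting with deep cells only (at least 5000 UMIs) was added after seeing the data. All 88 recomputed differences lay within the counting interval of the main difference. The shares of each library were not compared in this way. Of 153 ratios and counts of genes, 82 moved by less than their tolerance, 62 by more, and 9 with a main value beyond the tolerance changed sign. The median of all cycle genes, -0.07, was -0.03 under a stricter cell filter (1000 genes, 5% mitochondrial), 0.03 without cells above the doublet threshold, 0.08 with each cell weighted equally, -0.03 for genes with at least 200 UMIs, -0.05 without the deepest cell of each library and 0.17 with macrophage and T classes weighted equally. The last 2 were added after seeing the data. Its sign is thus not given by these data, and the cause was not tested. The chromatin list, -0.04, was 0.02, 0.04, 0.07 and 0.18 under the cell filter, the doublet threshold, equal cells and equal classes. Mitotic kinases, 0.13, were -0.07 for genes with at least 200 UMIs, as anaphase, 0.02 and so within the tolerance, was -0.09, and DNA synthesis, -0.30, was 0.14 with equal classes. The number of genes past 2-fold, 861, was 242 for genes with at least 200 UMIs, and 6477 with no minimum, since fewer or more genes enter, and 420 with equal classes, where the cause was not tested. Weighting lineages with at least 30 cells per library equally was not run, as no class reached 30. No paired analysis was possible because each group has 1 library and no result comes from a test. Classes of 2 to 29 cells limit every value within a lineage.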
